A study of Mus musculus with 16 samples.

Results

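The genes described here are 10 genes of the NF-kB pathway measured in mouse liver: Tnfaip3, Nfkbia, Nfkbiz, Nfkb1, Nfkb2, Relb, Bcl3, Icam1, Cxcl1 and Ccl2. They were taken by symbol, as feedback genes and targets of NF-kB, after Tnfaip3 had shown an interaction of genotype and dosing time in these same libraries. All 10 were found among the 40840 gene symbols counted, and all 10 passed the filter on low counts that left 14484 genes for testing. Because the interaction of Tnfaip3 set the choice, every value of Tnfaip3 and every interaction is given as a description with no test, and 9 genes could be tested.

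Poly(A)-selected liver RNA came from male C57BL/6J mice, 12 to 16 weeks old, that were wild type (WT) or Cry1-/- Cry2-/- (CryDKO), a genotype aimed at both cryptochromes, the repressors of the circadian clock. Every group was dosed intraperitoneally with 12 mg/kg of oxaliplatin, a DNA-damaging platinum compound, at circadian time 8 (CT8) or 16 (CT16). One passage of the series text speaks of a single dose and others of 3 days of dosing. The mice were kept in constant darkness during the experiment, and there were 4 libraries in each of the 4 groups: WT_CT8, WT_CT16, CryDKO_CT8 and CryDKO_CT16. No untreated group was analysed here, so no value shows what the drug itself did, and because the time of liver collection is not given in the sources used here, dosing time and the phase at collection cannot be told apart. The labels name no tissue-specific driver for the knockout.

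NF-kB is a family of transcription factors built as dimers of Rel proteins. In resting cells inhibitors of the IkB family hold the dimers back. Cytokines such as TNF and bacterial products activate a kinase complex that marks the inhibitors for destruction, and the freed dimers switch on genes of inflammation together with their own inhibitors, which closes a feedback loop. In liver the pathway is known for limiting the death of hepatocytes under TNF and for the release of signals that draw leukocytes in.

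The promoters are shown first because they carry the sequence that NF-kB dimers are known to bind. RefSeq promoter windows of 300 bases (250 before the start and 50 after it, build GRCm38.p6) were found for 6 of the 10 genes, in 9 windows. Nfkbiz, Nfkb1, Relb and Ccl2 had no entry. The build is not the GRCm39 of the counts, so the coordinates hold for GRCm38.p6 alone. Stretches of 5 genes are printed 5′ to 3′ on the strand of the gene. The capitals mark matches on either strand to the NF-kB consensus decamer or to GGAANTTCC, and in Tnfaip3 also CACGTG, the E-box that the clock activators bind and whose activation cryptochromes repress.
Tnfaip3 (chr10:19015411-19015550, minus strand): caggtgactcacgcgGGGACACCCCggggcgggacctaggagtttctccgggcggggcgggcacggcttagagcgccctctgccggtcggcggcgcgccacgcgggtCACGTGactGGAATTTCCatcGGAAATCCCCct
Nfkbia (chr12:55492652-55492691, minus strand): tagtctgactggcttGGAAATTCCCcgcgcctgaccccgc
Nfkb2 (chr19:46304683-46304736, plus strand): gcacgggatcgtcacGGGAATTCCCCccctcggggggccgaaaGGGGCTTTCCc
Icam1 (chr9:21015772-21015810, plus strand): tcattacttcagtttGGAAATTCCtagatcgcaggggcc
Cxcl1 (chr5:90891159-90891199, plus strand): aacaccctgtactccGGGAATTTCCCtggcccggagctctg

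The decamer occurred in windows of 5 of these 6 genes and GGAANTTCC in 4 of 6, and each of the 6 had at least 1 of them. Among all 27025 genes with RefSeq windows, 10.1% had at least 1 of them. Of all 32851 windows, 8.46% held the decamer, 0.928% GGAANTTCC and 7.15% CACGTG, searched on both strands. Both NF-kB motifs overlap each other in Nfkbia and Cxcl1. They and CACGTG were chosen after these sequences had been seen. Tnfaip3 had 2 decamers, 1 GGAANTTCC and 1 CACGTG, and CACGTG was found in the window of no other of the 6 genes. The decamer of Bcl3 lay 2 to 11 bases after its start. A match describes letters and is not evidence that a factor was bound.

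Library totals ranged from 18083916 to 29934138 counted reads. Levels are CPM, the read count of a gene relative to the library's total after edgeR's TMM scaling (trimmed mean of M values). Libraries carry the running numbers of their columns. The labels do not say that libraries came from separate animals, so p-values measure the spread between these libraries, which may be partly technical. Cry2 was lower in the libraries labelled CryDKO (23.1 to 33.3 CPM) than in WT (39.9 to 58.9), but Cry1 was higher (20.5 to 29 against 5.14 to 15.9), so directions by genotype depend on the labelled genotype. The libraries labelled CryDKO also held more RNA of hepatocyte markers. The 9 of 10 markers that were found summed to 102900 to 157600 CPM against 49300 to 95330 in WT. Alb was the largest part of these sums (means of 35950 CPM in WT_CT8, 49860 in WT_CT16, 83120 in CryDKO_CT8 and 88380 in CryDKO_CT16). In the test described below, 5 of the 9 were higher and 0 lower at CT8 (55.6%, beside 39% of all genes). At CT16 the counts were 3 and 0 (33.3%, beside 18.2%). The part of the difference in hepatocyte markers in the results below was not tested.

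Per kilobase of exon (lengths from the GRCm38 annotation), the mean over the 16 libraries was highest for Nfkbia, the IkB-alpha gene, at 38 CPM per kb. Cxcl1, a neutrophil attractant, followed at 30.6 and Bcl3, a nuclear IkB protein, at 17.6 CPM per kb. Icam1, an adhesion molecule for leukocytes, had 5.57, Nfkbiz, another nuclear IkB protein, 4.70, and the precursor subunit genes Nfkb2 and Nfkb1 2.39 and 1.81 CPM per kb. The lowest levels were those of the chemokine gene Ccl2 (0.751), the subunit gene Relb (0.641) and Tnfaip3 (0.520 CPM per kb). Each neighbour in this order overlapped the next over the 16 libraries. Ccl2 rested on 2 to 70 reads a library, Relb on at least 26 and Tnfaip3 on 39 to 245.

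Tnfaip3 encodes A20, a ubiquitin-editing enzyme that shuts off signalling from TNF receptors and Toll-like receptors. In WT_CT8 it stood at 1.80, 2.445, 2.349 and 2.364 CPM (libraries 1 to 4) and in WT_CT16 at 4.04, 4.10, 2.499 and 3.56 CPM (libraries 5 to 8). In CryDKO_CT8 it stood at 10.7, 5.44, 4.48 and 6.295 CPM (libraries 9, 10, 15 and 16) and in CryDKO_CT16 at 2.29, 2.21, 2.28 and 3.23 CPM (libraries 11 to 14). CryDKO_CT8 lay above every other library of the series, and library 9 was the highest. WT_CT16 lay above WT_CT8 without overlap, while CryDKO_CT16 overlapped both WT groups. The order of the means was CryDKO_CT8 (6.72 ± 2.74), WT_CT16 (3.55 ± 0.742), CryDKO_CT16 (2.504 ± 0.484) and WT_CT8 (2.24 ± 0.296 CPM, SD, n = 4).

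The fitted log2 change of Tnfaip3 from CT8 to CT16 was 0.66 ± 0.26 (SE) in WT. It was -1.43 ± 0.27 in the libraries labelled CryDKO. The interaction, the second change minus the first, was -2.09 ± 0.37. By genotype, CryDKO over WT, the log2 change was 1.59 ± 0.26 at CT8 and -0.50 ± 0.26 at CT16. All of these contrasts are built from the same 4 groups. Without CryDKO_CT8 library 9 the change in the libraries labelled CryDKO was -1.105, the genotype difference at CT8 1.30 and the interaction -1.81. Over all single libraries left out, the interaction ran from -2.24 to -1.81.

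**Figure D1:**
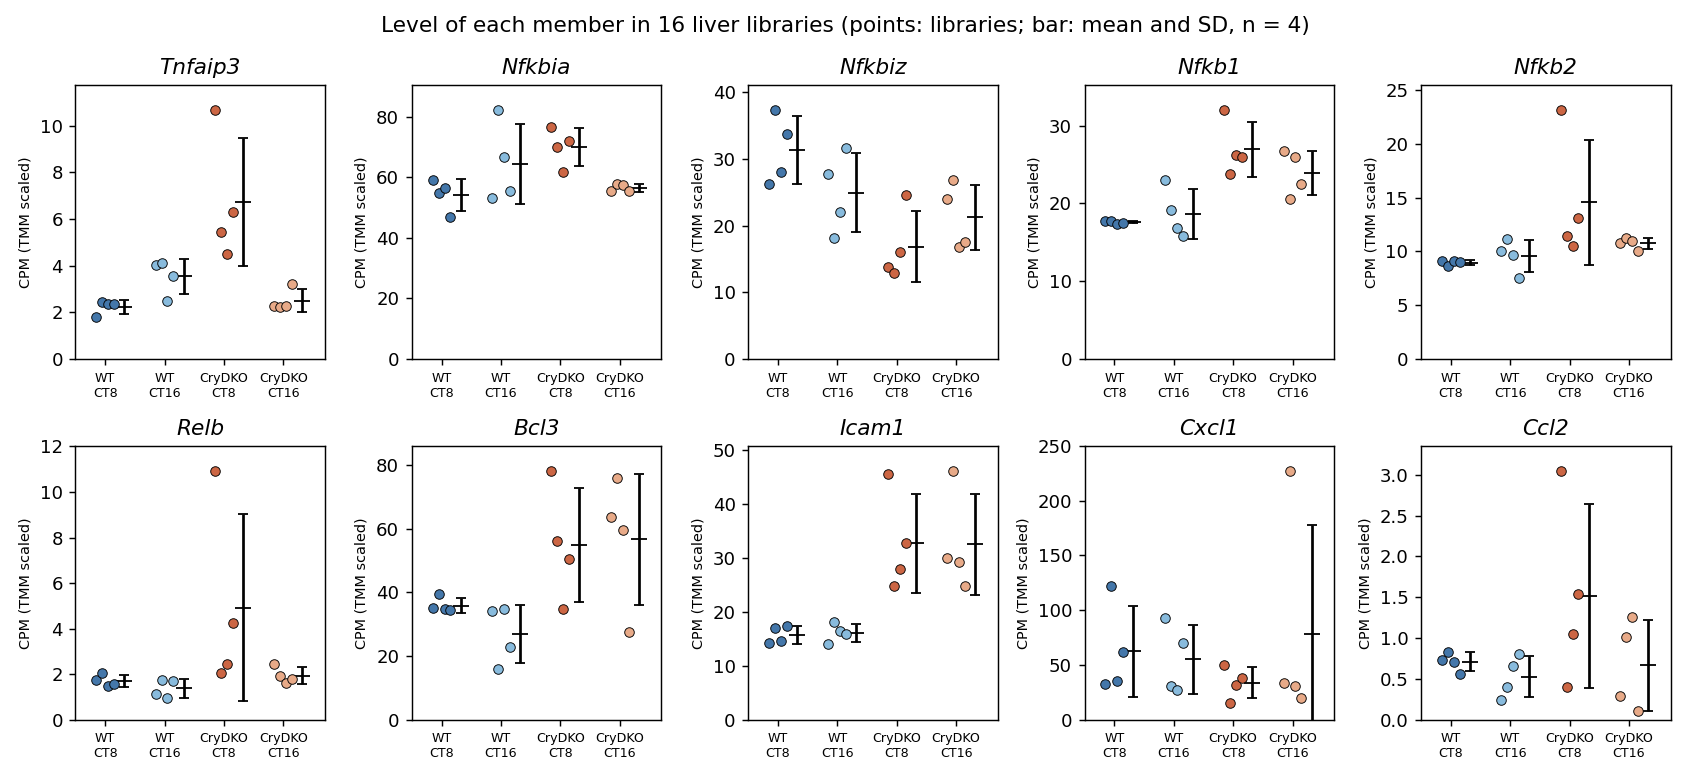
Level of each of the 10 genes in the 16 libraries, in CPM after TMM scaling on an axis from 0, by group. Points are libraries in the order of their numbers, and bars are the mean and SD of 4 libraries (the lower SD bar of Cxcl1 in CryDKO_CT16 is cut at 0). The 4 CryDKO_CT8 points of Tnfaip3 lie above every other library, and the 8 points of Icam1 labelled CryDKO lie above all 8 of WT.

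The next comparison was that of genotype at CT8. Here 5 of the 9 genes that could be tested, Icam1, Nfkb1, Nfkb2, Relb and Nfkbia, were higher in the libraries labelled CryDKO, Nfkbiz was lower, and Bcl3, Cxcl1 and Ccl2 did not pass. The test was the quasi-likelihood test of edgeR, with p-values adjusted by Benjamini-Hochberg over all 14484 genes and a threshold of 0.05. Of all genes 39% passed, 18.7% higher and 20.3% lower. In 5 of the 9, Nfkbia, Nfkbiz, Nfkb1, Nfkb2 and Icam1, the 4 libraries labelled CryDKO did not overlap the 4 of WT, beside 39.2% of all genes. The median log2 change of the 9 was 0.62, and that of all genes was -0.02. With scaling by library size alone the median of all genes moved to -0.356, and 2 of the 9 were called higher and 1 lower (33.3%). Of all genes 42% passed in that setting, 961 higher and 5127 lower. Nfkb1 (adjusted p = 0.144), Nfkb2 (0.168) and Nfkbia (0.881) were lost there in edgeR's quasi-likelihood test.

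Of the IkB genes, Nfkbia, whose product IkB-alpha is made anew after each round of NF-kB activation, stood at 58.97, 54.8, 56.4 and 46.8 CPM in WT_CT8. In CryDKO_CT8 it stood at 76.5, 69.8, 61.6 and 71.9 CPM. All 4 libraries labelled CryDKO were above all 4 of WT, by a small margin. The log2 change was 0.37 ± 0.14 (SE), with adjusted p = 0.0395 from edgeR. The call was lost with any of 5 libraries left out: WT_CT8 library 2 (adjusted p = 0.0736) or 4 (0.116), or CryDKO_CT8 library 9 (0.0827), 10 (0.0611) or 16 (0.0672) in the same edgeR test. It was also lost with no low count filter (0.0504) and with a minimum mean of 50 reads (0.0769).

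Nfkbiz encodes IkB-zeta, which works in the nucleus as a cofactor of NF-kB at secondary response genes. It stood at 26.2, 37.4, 27.98 and 33.7 CPM in WT_CT8 and at 13.8, 12.9, 16.1 and 24.5 CPM in CryDKO_CT8. Every library labelled CryDKO was below every WT library, and library 16 was nearest to them. Nfkbiz fell by 0.90 ± 0.21 on the log2 scale (adjusted p = 0.00319, edgeR's quasi-likelihood test), the only one of the 9 called lower. Bcl3, which binds homodimers of the Nfkb1 and Nfkb2 products, stood at 35.1, 39.3, 34.6 and 34.3 CPM in WT_CT8 and at 78.2, 56.1, 34.7 and 50.4 CPM in CryDKO_CT8. Library 15 lay among the WT values while the other 3 lay above them. The log2 change of Bcl3 was 0.61 ± 0.30 with adjusted p = 0.112, and it passed without CryDKO_CT8 library 15 (adjusted p = 0.0490), without CryDKO_CT16 library 14 (0.0438) or in a fit of these 2 groups only (0.0288), all by edgeR.

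Among the subunit genes, Nfkb1, which encodes the precursor of a subunit of the canonical dimer, stood at 17.8, 17.7, 17.4 and 17.5 CPM in WT_CT8. In CryDKO_CT8 it stood at 32.03, 23.8, 26.2 and 25.97 CPM. The WT libraries were almost level and all 4 libraries labelled CryDKO were above them, with a log2 change of 0.62 ± 0.14 (adjusted p = 0.00179, edgeR). Nfkb2, the precursor gene of the noncanonical arm, stood at 9.075, 8.604, 9.06 and 9.04 CPM in WT_CT8 and at 23.1, 11.46, 10.46 and 13.1 CPM in CryDKO_CT8. The groups did not overlap and library 9 was the highest by far, with a log2 change of 0.70 ± 0.20 (adjusted p = 0.00871, edgeR). Without library 9 the change of Nfkb2 was 0.42 (adjusted p = 0.0413, edgeR).

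Relb, whose product pairs with that of Nfkb2, stood at 1.76, 2.07, 1.47 and 1.58 CPM in WT_CT8 and at 10.9, 2.07, 2.435 and 4.26 CPM in CryDKO_CT8. CryDKO_CT8 library 10 overlapped WT. Relb rose by 1.52 ± 0.40 on the log2 scale (adjusted p = 0.00623, edgeR's quasi-likelihood test). Library 9 set much of this size: without it the log2 change was 0.79 and adjusted p = 0.0579.

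Among the targets, Icam1 stood at 14.2, 16.99, 14.5 and 17.3 CPM in WT_CT8 and at 45.4, 24.7, 27.8 and 32.7 CPM in CryDKO_CT8. The lowest library labelled CryDKO lay above the highest of WT. Icam1 rose by 1.05 ± 0.19 on the log2 scale (adjusted p = 0.000394, edgeR). The chemokine genes did not pass and overlapped between the groups. Cxcl1 stood at 32.3, 121.7, 35.1 and 61.5 CPM in WT_CT8 and at 49.6, 15.6, 31.7 and 38.1 CPM in CryDKO_CT8 (log2 change -0.89 ± 0.78). Ccl2, which draws monocytes, stood at 0.735, 0.836, 0.713 and 0.563 CPM in WT_CT8 and at 3.05, 0.404, 1.051 and 1.54 CPM in CryDKO_CT8 (log2 change 1.083 ± 0.58). The adjusted p from edgeR was 0.386 for Cxcl1 and 0.141 for Ccl2.

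**Figure D2:**
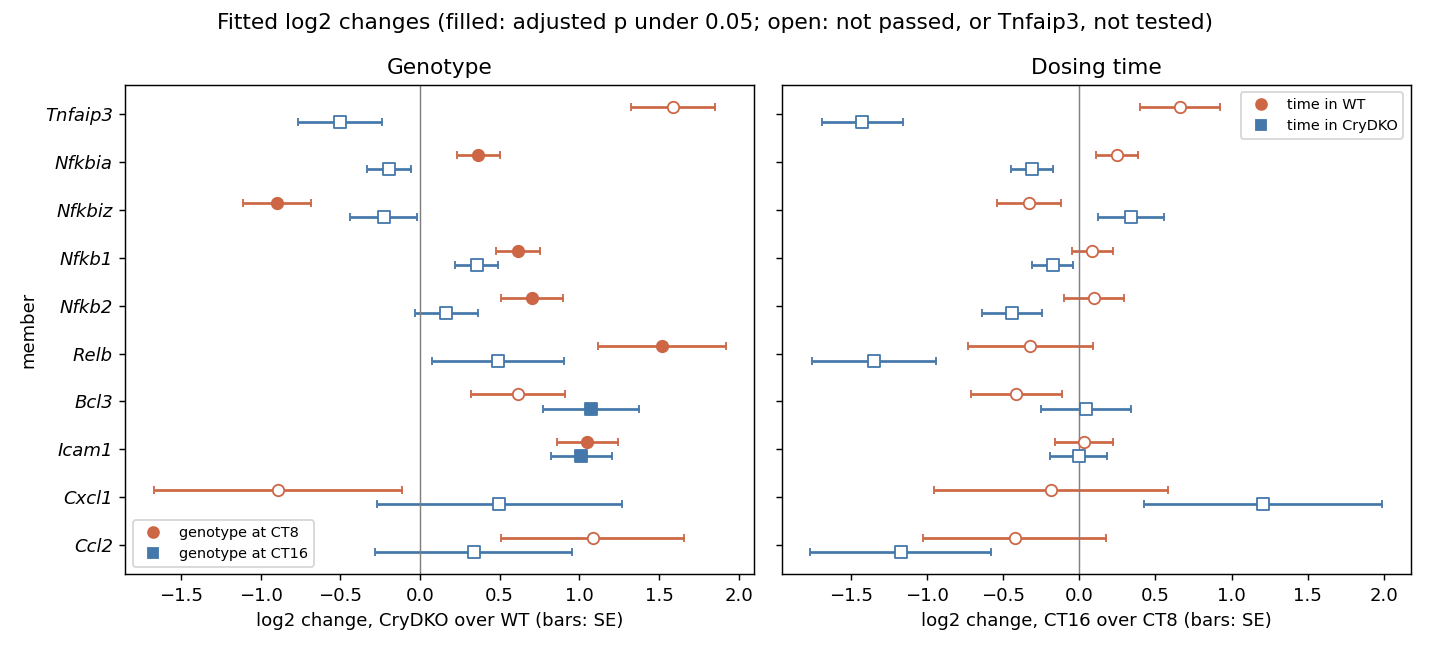
Fitted log2 changes of the 10 genes with SE bars: CryDKO over WT at CT8 and CT16 on the left, CT16 over CT8 in each genotype on the right. Filled symbols passed an adjusted p of 0.05, and open symbols did not pass or, for Tnfaip3, were not tested. Icam1 is the gene that passed at both times on the left, and no symbol on the right is filled.

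At CT16, 2 of the 9 genes, Icam1 and Bcl3, were higher in the libraries labelled CryDKO, 0 were lower and 7 did not pass edgeR's quasi-likelihood test. Of all genes 18.2% passed there, 9% higher and 9.15% lower. The median log2 change of the 9 was 0.36 against -0.01 over all genes. Icam1 was the only one of the 9 without overlap, beside 19.8% of all genes. It stood at 14.03, 18.1, 16.4 and 15.97 CPM in WT_CT16 and at 29.98, 46.1, 29.2 and 24.8 CPM in CryDKO_CT16. Every library labelled CryDKO was above every WT library, and library 12 was the highest. Icam1 rose by 1.01 ± 0.19 (adjusted p = 0.00138, edgeR), and its interaction with time was -0.04 ± 0.27.

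Bcl3 stood at 34.1, 15.8, 34.8 and 22.9 CPM in WT_CT16 and at 63.6, 75.8, 59.7 and 27.6 CPM in CryDKO_CT16. Library 14 fell within the WT range and the other 3 lay above it. The log2 change of Bcl3 was 1.07 ± 0.30 (adjusted p = 0.0220, edgeR's quasi-likelihood test). The call was lost without WT_CT16 library 8 (adjusted p = 0.0635) and without CryDKO_CT16 library 11 (0.0517), 12 (0.0687) or 13 (0.0511). It was also lost with no low count filter (0.0655), with scaling by library size alone (0.0581) and in a fit of the 2 groups only (0.0573), by edgeR throughout.

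The remaining genes overlapped between the genotypes at CT16. Nfkb1 came nearest to passing, at 23.0, 19.2, 16.8 and 15.8 CPM in WT_CT16 and 26.7, 20.6, 25.9 and 22.5 CPM in CryDKO_CT16. Its log2 change was 0.36 ± 0.14 with adjusted p = 0.0742, and it passed without WT_CT16 library 5 (adjusted p = 0.0246, edgeR). Nfkb2 stood at 7.53 to 11.2 CPM in WT_CT16 and 9.99 to 11.2 in CryDKO_CT16, and Relb at 0.956 to 1.73 and 1.599 to 2.47 CPM. The IkB genes Nfkbia (53.2 to 82.2 against 55.3 to 57.6 CPM) and Nfkbiz (18.2 to 31.6 against 16.7 to 26.8 CPM) had lower means in the libraries labelled CryDKO, with log2 changes of -0.19 ± 0.14 and -0.23 ± 0.21 that did not pass. Ccl2 stood at 0.247 to 0.802 CPM in WT_CT16 and 0.102 to 1.26 CPM in CryDKO_CT16.

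Over both times together, 5 of 9 genes were higher in the libraries labelled CryDKO and 1, Nfkbiz, was lower, by edgeR's quasi-likelihood test, in which 47.1% of all genes passed, 22.9% higher and 24.2% lower. Icam1 had 14.03 to 18.1 CPM in the 8 WT libraries and 24.7 to 46.1 CPM in the 8 labelled CryDKO. It was the only one of the 9 without overlap over 8 against 8, beside 7.88% of all genes, with a log2 change of 1.03 ± 0.13 (adjusted p = 8.5e-06). The other rises were those of Nfkb1 (0.49 ± 0.10, adjusted p = 0.000471), Bcl3 (0.84 ± 0.21, 0.00422), Relb (1.003 ± 0.29, 0.00786) and Nfkb2 (0.43 ± 0.14, 0.0152), and Nfkbiz fell by 0.56 ± 0.15 (0.00506) on the log2 scale. Without CryDKO_CT8 library 9 the rise was 0.64 for Relb (adjusted p = 0.0225) and 0.29 for Nfkb2 (0.0313, edgeR). With scaling by library size alone 2 of the 9 were higher and 1 lower, beside 48.2% of all genes (1421 higher and 5560 lower). In that setting Nfkb1 (adjusted p = 0.0591), Relb (0.0553) and Nfkb2 (0.277) were lost in the same edgeR test. Genotype at both times shares its libraries with the separate comparisons and is not independent of them.

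Dosing time was compared within each genotype. In WT 0 of 9 genes passed between CT16 and CT8, where 2.53% of all genes did, and DESeq2 and limma voom called 0 as well. None had an unadjusted p under 0.05 by edgeR (0 of 9), beside 3830 of all 14484 genes. The 9 log2 changes ran from -0.42 for Ccl2 to 0.25 for Nfkbia. None of the 9 separated its groups there (0 of 9), beside 12.6% of all genes. In the libraries labelled CryDKO 0 of 9 passed and 0% of all genes did. There 3 of the 9, Nfkbia, Nfkb2 and Relb, had an unadjusted p under 0.05 by edgeR, beside 938 of all 14484 genes. DESeq2 and limma voom called 0 of the 9 there. Over both genotypes 0 of 9 passed, again beside 0% of all genes, and DESeq2 and limma voom called 0. Here 1, Relb, had an unadjusted p under 0.05 by edgeR, beside 2901 of all 14484 genes.

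The values of those 3 genes at CT8 were given above. At CT16 in the libraries labelled CryDKO, Relb stood at 2.469, 1.90, 1.599 and 1.79 CPM, a log2 change of -1.35 ± 0.41 from CT8 (adjusted p = 0.656, edgeR). Nfkb2 stood at 10.8, 11.2, 10.96 and 9.99 CPM (-0.44 ± 0.20, adjusted p = 0.763, edgeR). Nfkbia stood at 55.4, 57.6, 57.3 and 55.3 CPM (-0.31 ± 0.14, adjusted p = 0.753, edgeR), below all 4 CryDKO_CT8 libraries, and was the only one of the 9 without overlap, where 2.45% of all genes had none. Relb and Nfkb2 overlapped between the times. Without CryDKO_CT8 library 9 the change was -0.59 for Relb, -0.12 for Nfkb2 and -0.27 for Nfkbia.

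The interaction of the other 9 genes, with no test, ran from -1.03 ± 0.58 for Relb to 1.39 ± 1.09 for Cxcl1. It was -0.56 ± 0.19 for Nfkbia, -0.54 ± 0.28 for Nfkb2, -0.26 ± 0.19 for Nfkb1 and -0.75 ± 0.85 for Ccl2. With 1 library left out these ran from -0.66 to -0.43 for Nfkbia and from -0.67 to -0.26 for Nfkb2. They ran from -0.37 to -0.15 for Nfkb1 and from -1.22 to -0.19 for Ccl2. The interaction was 0.67 ± 0.30 for Nfkbiz and 0.46 ± 0.42 for Bcl3. Without CryDKO_CT8 library 9 the interaction of Relb was -0.31, and without CryDKO_CT16 library 12 that of Cxcl1 was -0.10. Over all genes 6 passed the test of the interaction, 0.0414% of those tested.

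Single libraries carried much of the spread within groups. Cxcl1, a gene that responds within hours to cytokines, stood at 33.4, 227, 30.4 and 20.1 CPM in CryDKO_CT16 and at 92.6, 31.2, 27.1 and 69.9 CPM in WT_CT16. Library 12 held 8.13 times the mean of the other 3 libraries of its group. The log2 change of Cxcl1 from CT8 to CT16 in the libraries labelled CryDKO was 1.21 ± 0.78 with library 12 and -0.27 without it. Library 12 was also the highest of CryDKO_CT16 in Icam1, at 1.65 times the mean of the other 3, and in 6 of the 10 genes in all.

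CryDKO_CT8 library 9 was the highest of its group in 9 of the 10 genes, all but Nfkbiz, and the highest of the 16 libraries in 6. Tnfaip3, whose values set the choice of genes, is in both counts. How often library 9 or library 12 was the highest over all genes was not counted. These counts are therefore not read as particular to the 10 genes. Relative to the mean of the other 3 libraries, library 9 held 3.74 times the level of Relb, 3.06 times that of Ccl2, 1.98 times those of Tnfaip3 and Nfkb2, 1.66 times that of Bcl3 and 1.60 times that of Icam1. Nfkbia (1.13 times) and Nfkb1 (1.27 times) differed less, and Nfkbiz was at 0.773 times. Library 9 was also the highest of its group in 6 of 8 marker lists of other liver cell types. The 12 Kupffer cell and macrophage markers summed to 199.9 CPM in it and to 82.5 to 125.8 in the other 3, the 8 monocyte markers to 38.9 against 18.2 to 19.9, and the 12 neutrophil markers to 12.8 against 3.37 to 8.74 CPM. The part of these cells in the levels of the NF-kB genes was not tested, and in bulk tissue more cells of a type and more RNA per cell cannot be told apart.

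Without libraries 9 and 12 together, a choice made after seeing the data, 3 of 9 genes were higher and 1 lower at CT8, where 32.2% of all genes passed. Nfkbia (adjusted p = 0.0894) and Relb (0.0655) were lost in edgeR's quasi-likelihood test. At CT16 3 were higher, with Nfkb1 added (adjusted p = 0.0469, edgeR), beside 14.2% of all genes. Over both times 5 were higher and 1 lower, as with all libraries, beside 41.5% of all genes.

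**Figure D3:**
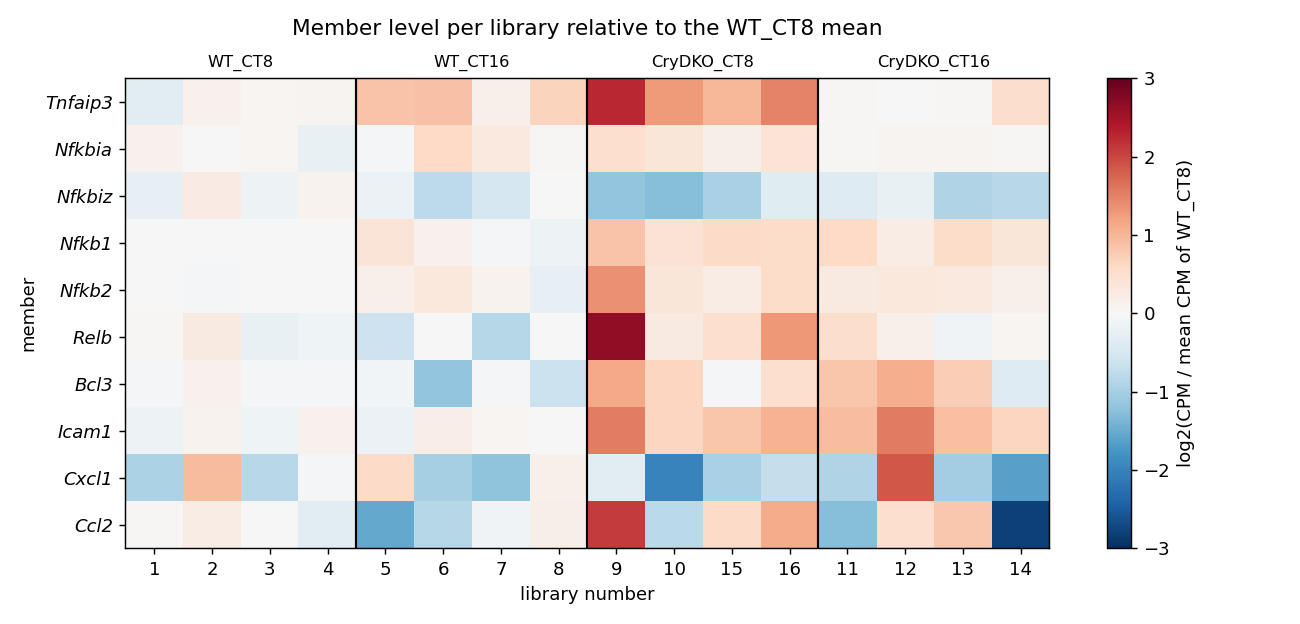
Level of the 10 genes (rows) in each library (columns, by library number and group), as log2 of CPM over the mean CPM of WT_CT8, from blue (lower) to red (higher). Library 9 is the reddest column, library 12 stands out in Cxcl1, and Icam1 is red in all 8 libraries labelled CryDKO.

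Markers of other cells were compared with the genotype result as well. At CT16 the Kupffer cell and macrophage markers summed to 33.2 to 123.0 CPM in WT and to 128.7 to 223.1 in the libraries labelled CryDKO, and 5 of 12 rose (41.7%, beside 18.2% of all genes), among them the complement genes C1qa (1.39 ± 0.30) and C1qb (1.45 ± 0.33) on the log2 scale. At CT8 the sums were 68.4 to 100.5 and 82.5 to 199.9 CPM, and 2 of 12 rose (16.7%, beside 39% of all genes), of which 0 remained without libraries 9 and 12. The 12 sinusoidal endothelium markers, whose cells are known to carry ICAM1, summed to 134.3 to 192.9 CPM in WT_CT8 and 113.5 to 195.1 in CryDKO_CT8. At CT16 they summed to 69.7 to 176.6 and 95.2 to 154.8 CPM, and the sums overlapped at both times. Of these 12, 0 were called at CT8, beside 39% of all genes. At CT16 1 of 12, Stab2, rose (1.11 ± 0.20, adjusted p = 0.00113, edgeR), or 8.33% beside 18.2% of all genes. The 12 stellate cell and fibroblast markers summed to 186.0 to 236.6 CPM in WT_CT8 and 208.1 to 453.2 in CryDKO_CT8, and 4 of 12 rose (33.3%, beside 39% of all genes), among them the collagen genes Col1a1 (1.62 ± 0.35) and Col1a2 (1.42 ± 0.24). Without libraries 9 and 12, 3 of these 12 were called higher, beside 32.2% of all genes. At CT16 their sums were 113.4 to 249.7 and 92.3 to 285.4 CPM, and 2 of 12 rose (16.7%, beside 18.2% of all genes). Over both times 7 of 12 rose (58.3%, beside 47.1%). The 8 cholangiocyte markers summed to 40.6 to 110.3 CPM in WT_CT8 and 66.4 to 166.7 in CryDKO_CT8. Of 7 tested, 2 rose at CT8 (28.6%, beside 39% of all genes), among them the keratin gene Krt19 (2.10 ± 0.43, adjusted p = 0.00105, edgeR). At CT16 the sums were 61.13 to 92.72 and 61.55 to 168.8 CPM. There Krt19 rose (1.26 ± 0.44) and Sox9 fell (-1.05 ± 0.34), or 28.6% beside 18.2% of all genes. These 2 calls were lost in 12 and 7 of the 16 fits that left out 1 library. Over both times 2 of 7 rose and 1 fell (42.9%, beside 47.1%). Neutrophil markers summed to at most 12.8 CPM in any library, and the granule gene Mpo had 0 reads in every library. The part of the macrophage, stellate cell and cholangiocyte markers in the rises of the NF-kB genes was not tested.

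The wider pathway was read from 6 lists of 107 genes outside the 10, of which 85 passed the filter. At CT8 27 were higher in the libraries labelled CryDKO, 9 lower and 49 did not pass, so 42.4% passed beside 39% of all genes. At CT16 11 were higher, 4 lower and 70 did not pass, or 17.6% beside 18.2%. These shares lie near those of all genes. With scaling by library size alone 7 were higher and 20 lower at CT8 (31.8%, beside 42% of all genes), and 2 and 8 at CT16 (11.8%, beside 17.2%). Of the 36 calls at CT8, 16 were kept with the same sign there, 20 were lost without a change of sign, and 11 other genes were called, all 11 lower. Of the 15 calls at CT16, 6 were kept, 9 were lost without a change of sign, and 4 other genes were called lower. Without libraries 9 and 12 the counts at CT8 were 17 higher and 8 lower, 29.4% beside 32.2% of all genes. In WT 1 of the 85, the target gene Stat5a, was lower at CT16 (-0.66 ± 0.17, adjusted p = 0.0467, edgeR), a call lost in 10 of the 16 fits that left out 1 library. In the libraries labelled CryDKO 0 of 85 passed between the times.

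Of 6 further subunit and IkB genes, 4 were higher at CT8, 1 lower and 1 did not pass (83.3% called, beside 39% of all genes). Rela, the main activating subunit, rose by 0.73 ± 0.16 on the log2 scale (adjusted p = 0.00137, edgeR), and the IkB genes Nfkbib and Nfkbie by 0.79 ± 0.15 and 0.75 ± 0.23. Rel, a subunit of lymphoid cells that was named after its value was seen, fell by 0.72 ± 0.22. At CT16 Nfkbie (0.90 ± 0.23) and Nfkbib (0.53 ± 0.15) rose and 0 fell (33.3%, beside 18.2% of all genes). With scaling by library size alone the rises of Rela and Nfkbie at CT8 and of both genes at CT16 were lost.

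Among 5 ligand genes 1 was higher and 2 lower at CT8 (60%, beside 39% of all genes). Il18, a cytokine of the IL-1 family, fell by 1.31 ± 0.17 on the log2 scale at CT8 (adjusted p = 3.29e-05) and by 0.87 ± 0.17 at CT16 (0.00179, edgeR). Of 10 receptor genes 4 were higher and 2 lower at CT8 (also 60%). Tnfrsf1a, the main TNF receptor gene, rose by 1.07 ± 0.19 at CT8 (adjusted p = 0.000332, edgeR). Tlr5, the flagellin receptor, fell by 2.19 ± 0.41 at CT8 and by 2.01 ± 0.42 at CT16, and Tlr3, a receptor of double-stranded RNA, fell by 0.98 ± 0.23 and 1.01 ± 0.23. The other ligand calls at CT8, the rise of Ltb (1.43 ± 0.47) and the fall of Il1a (-1.36 ± 0.45), were lost in 4 and 5 of the 16 fits that left out 1 library. At CT16 1 ligand, Il1b (1.37 ± 0.47), and 1 receptor, Tnfrsf1a (0.55 ± 0.19), were higher, calls lost in 10 and 12 of those fits, and 1 ligand and 2 receptors were lower. That made 40% of the ligands and 30% of the receptors, beside 18.2% of all genes.

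Of 20 genes of adaptors and kinases 7 were higher and 3 lower at CT8 (50%, beside 39% of all genes), and 4 and 0 at CT16 (20%, beside 18.2%). Chuk, which encodes IKK-alpha, fell by 0.87 ± 0.13 on the log2 scale at CT8 (adjusted p = 0.000101, edgeR), while the adaptor genes Traf2 (0.54 ± 0.14) and Tab1 (0.78 ± 0.20) rose. Of 17 other negative regulators 4 were higher and 1 lower at CT8 (29.4%, beside 39% of all genes), and 0 passed at CT16, beside 18.2%. Tnip1, whose product binds A20, rose by 0.79 ± 0.20 at CT8 (adjusted p = 0.00483, edgeR). The rises of Traf2, Tab1 and Tnip1 were lost with scaling by library size alone.

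Of 27 other target genes 7 were higher and 0 lower at CT8, and 3 and 1 at CT16. The shares called, 25.9% and 14.8%, were below the 39% and 18.2% of all genes. The survival gene Bcl2l1 rose by 1.05 ± 0.15 at CT8 (adjusted p = 6.56e-05) and by 0.61 ± 0.15 at CT16 (0.00816, edgeR). Ier3, an early response gene, rose by 2.37 ± 0.45 and 1.93 ± 0.45 on the log2 scale, and Lcn2, the siderophore binder of the acute phase, by 2.01 ± 0.46 at CT8. The mean of Lcn2 lay the other way at CT16, at 738.4 CPM in WT_CT16 and 449.5 in CryDKO_CT16, and the groups overlapped. Psmb9, an immunoproteasome subunit, fell by 0.65 ± 0.19 at CT16, a call lost without WT_CT16 library 8 (adjusted p = 0.0601, edgeR).

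The genes whose levels ran most like Tnfaip3 over the 16 libraries were taken by Pearson's r of log2 CPM among 10292 genes. Afp, the alpha-fetoprotein gene, came first (r = 0.849), then Maff, a small Maf transcription factor (0.840), Tmem185b (0.819), the keratin gene Krt8 (0.800) and Myadm (0.800). The points share their groups and library 9, and without that library the values were 0.750, 0.698, 0.655, 0.634 and 0.679. Maff stood at 3.90 to 6.90 CPM in WT_CT8, 4.74 to 8.31 in WT_CT16, 7.997 to 29.03 in CryDKO_CT8 and 4.42 to 6.91 in CryDKO_CT16. Krt8 stood at 118.0 to 148.6, 131.2 to 273.8, 239.7 to 549.5 and 185.6 to 206.5 CPM in the same order. The highest library of each of these 2 genes lay in CryDKO_CT8, as for Tnfaip3. Such likeness is a description chosen over many genes.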

How the data were processed

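Poly(A)-selected liver RNA of 16 libraries in 4 groups was sequenced, per the labels. Per the submitters' processing notes, FastQC, Trimmomatic 0.35, STAR 2.5.3, HTSeq 1.99.2, DESeq2 and the build GRCm39 (mm39) were used; which annotation and strand setting were used is not given in the sources used here. Values in the deposited table are counts, whole reads for 40840 symbols, not normalized. A second deposited table of normalized values was not used.

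From these counts, edgeR 4.0.16 (R 4.3.3) tested 14484 genes left by its filterByExpr filter, with TMM scaling and a robust quasi-likelihood fit that gave each group 1 coefficient over the 16 libraries. There were 6 tested comparisons, two-sided, with Benjamini-Hochberg adjustment over all genes in each. The SE of a log2 change is approximate (its size over the square root of F). Pairs of libraries within a group differed beyond counting error (chi-square per degree of freedom 20.2 to 136 over 24 pairs). Depth was 18083916 to 29934138 reads a library.

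Alternatives were DESeq2 1.42.0, limma 3.58.1 voom, DESeq2 size factors in edgeR, no scaling beyond library size, no filter on low counts, a minimum mean of 50 reads, no robust option, only the groups of a comparison, each library left out in turn and, added later, libraries 9 and 12 left out together. The procedure was tested on simulated data. Figures were drawn with Python 3.11.15.

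The members and lists were chosen with earlier results of these data known. Named were the 10 genes and, in each comparison, up to 3 genes a list (lowest adjusted p among those called). Also named were the 5 genes most like Tnfaip3 (mean log2 CPM at least 1, outside the 10, without model or clone names). Not every gene that meets this rule is printed. Overlapping genes and antisense partners could not be separated, since the strand setting is not known.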

Additional observations from a re-analysis of the deposited data

Results flagged for a closer look

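In 5 of 40 combinations of gene and group 1 library stood far from the other 3 of its group, by the ratio of its gap to the range of the group. Outside Tnfaip3 these were 3 of 36, where chance gives about 1 in 20. The values of Tnfaip3, which set the choice of genes, are given as a description and not read against chance. Tnfaip3 in WT_CT8 was lowest in library 1, at 1.80 CPM, with the other 3 between 2.349 and 2.445 CPM. Tnfaip3 in CryDKO_CT16 was highest in library 14, at 3.23 CPM, with the other 3 between 2.21 and 2.29 CPM. Nfkb2 in WT_CT8 was lowest in library 2, at 8.604 CPM, a small gap to the next value of 9.04 CPM. Bcl3 in WT_CT8 was highest in library 2, at 39.3 CPM, and the next value was 35.1 CPM. Cxcl1 in CryDKO_CT16 was highest in library 12, at 227 CPM, and the next value was 33.4 CPM. No explanation of these values was tested.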

How the results depend on the processing

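The count of the 9 genes called by genotype at CT8 was 6, and 3 with scaling by library size alone. Leaving out 1 library at a time gave 4 to 7. Over all genes the count at CT8 was 5649, and 4274 to 6112 with 1 library left out. At CT16 the count of the 9 was 2, and 1 to 3 with 1 library left out. It was 1 with scaling by library size alone, with no low count filter or in a fit of the 2 groups only. Over all genes the count at CT16 was 2629, and 1821 to 2742 with 1 library left out. Over both times the count of the 9 was 6, 3 with scaling by library size alone, and 6 in each fit that left out 1 library. Over all genes it was 6827, and 6129 to 6855 with 1 library left out. DESeq2 and limma voom called 6, 2 and 6 of the 9. Over all genes, the settings other than leaving out 1 library called 4577 to 6088 at CT8 and 1790 to 3169 at CT16. Over both times those settings called 5541 to 7103 of all genes. The counts by dosing time were 0 for WT and 0 for the libraries labelled CryDKO under edgeR, DESeq2 and limma voom.

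Some values that did not pass changed sign. The change of Nfkbia with time in WT was 0.25 and became -0.0152 with scaling by library size alone. That of Nfkb2 over both genotypes was -0.17 and ran from -0.23 to 0.0091 with 1 library left out. That of Cxcl1 with time in the libraries labelled CryDKO ran from -0.27 to 1.53, and was -0.0236 without libraries 9 and 12. The interaction of Cxcl1 ran from -0.10 to 1.75. The cause of each change was not tested. The count of all genes called with time in WT was 367 and ran from 0 to 3580 with 1 library left out. No paired analysis was possible because the count columns are numbered across the whole series and do not show the replicate numbers of the labels. Depth limits Ccl2 most, with 2 to 70 reads a library.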

Other observations

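Immediate early genes, which many stimuli induce within minutes, were a list outside the pathway. By edgeR's quasi-likelihood test 6 of 17 stood higher at CT8 in libraries labelled CryDKO and 0 lower, 35.3% beside 39% of all genes. At CT16 3 of 17 were higher and 0 lower, 17.6% beside 18.2% of all genes. Ier5 (log2 change 1.44 ± 0.26), Ier2 (1.01 ± 0.22) and Jund (1.103 ± 0.25) rose at CT8, and Ier5 (1.40 ± 0.26) and Jund (0.92 ± 0.25) at CT16. The call of Jund at CT16 was lost without WT_CT16 library 8 (adjusted p = 0.0605, edgeR). Without libraries 9 and 12 the counts were 5 higher and 0 lower at CT8 (29.4%, beside 32.2% of all genes). At CT16 they were then 3 higher and 2 lower (29.4%, beside 14.2%).

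Targets of the glucocorticoid receptor, a transcription factor known to restrain NF-kB, were higher in 7 of 14 at CT8 and lower in 0, and higher in 4 of 14 at CT16, beside 39% and 18.2% of all genes. Hsd11b1, which regenerates active glucocorticoid, rose by 1.03 ± 0.18 on the log2 scale at CT8 and by 1.002 ± 0.18 at CT16. Fkbp5, a cochaperone of the receptor, rose by 1.41 ± 0.27 at CT8, and the cell cycle inhibitor gene Cdkn1a by 1.38 ± 0.38. With scaling by library size alone 4 were higher and 1 lower at CT8 (35.7%, beside 42% of all genes), and 2 higher at CT16 (14.3%, beside 17.2%). The rises of Fkbp5 (0.88 ± 0.26) and Per1 (0.68 ± 0.19) at CT16 were each lost in 3 of the 16 fits that left out 1 library. The part of the receptor in the levels of these genes was not tested.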
